A study of Mus musculus with 3 samples.

Results

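The ribosomal protein genes of the mouse were examined in the small RNAs of fully grown oocytes, on both strands. The set held the protein-coding genes of GENCODE M21 whose symbol starts with Rpl or Rps and a digit, with Rplp0, Rplp1, Rplp2 and Rpsa, leaving out the Rps6k kinases and names ending in l or -ps. This gave 81 of the 21951 coding genes. Rpl7l1, Rpl22l1, Rps19bp1 and Rps27rt came in by their names, although they are not among the usual ribosomal proteins. A read was placed by its first 20 nt, and 80 of the 81 genes had at least 1 read on a coding transcript. Rpl24 had none.

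The RNA came from fully grown oocytes, the large oocytes of the ovarian follicle before ovulation, of mice given PMSG (5 IU, injected 48 hours before they were killed), a hormone used to stimulate the growth of follicles. Every library shares this treatment, and the strain, age and number of mice are not given in the labels. Total RNA was cut from gels in windows of 19-24, 24-30 and 19-30 nt, with 1 library for each window. No difference between libraries therefore has a replicate check, and the intervals below are 95% intervals of counting error, which leave out PCR and library preparation.

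Ribosomal proteins build the small (Rps) and large (Rpl) subunits of the ribosome. Their short, abundant mRNAs have left many processed pseudogenes, copies that were reverse transcribed and inserted elsewhere in the genome. In mouse oocytes the antisense transcript of such a copy can pair with the mRNA of the parent gene, and Dicer then cuts the duplex into endogenous siRNAs of about the length of a microRNA. The question was whether many ribosomal protein pseudogenes give antisense siRNAs, and with which lengths and strands.

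In the order of these windows, 315365 (46.4%), 344251 (24.2%) and 146868 (33.5%) of the usable inserts matched an annotated transcript. Levels are in RPM, reads per 1000000 of these matched reads, and a floor set at 3 reads is 9.51, 8.715 and 20.4 RPM in that order. Sense microRNA reads took 78.6%, 7.34% and 18.4% of the matched reads, so RPM is relative to a different total make-up in each window. Sense reads were found for 14 of 15 oocyte marker genes (46, 55 and 69 reads in the 3 libraries) and none for Figla. Granulosa markers other than Mir202 gave 30, 90 and 0 reads, from 7 of 8 genes, and Mir202 gave 3656, 47 and 14. Blood markers, led by Mir451a, gave 3973, 213 and 47 reads from 4 of 5 genes, with Hba-a1 at 0, and liver markers gave 2, 0 and 4 from 1 of 2, with Alb at 0.

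The sequences that carry the finding are those of Rps23 and Rps6, a pair of small-subunit proteins. Rps23 lies beside the decoding centre of the ribosome, and Rps6 is the subunit protein phosphorylated downstream of mTOR. The first lines below are the leading Rps23 inserts of 19-30 nt on each strand, which the mRNA shares with pseudogenes. The lines called pseudogene antisense match no ribosomal protein mRNA on either strand. Capitals mark the bases at which an insert differs from the mRNA or its complement. All are DNA letters of sequenced inserts, written 5′ to 3′.
Rps23 sense: tctcatgcaaagggaattgtgc
Rps23 antisense: tgggctttcttgtactgtttgt
Rps23 pseudogene antisense: tgccacttctgAtcccgtcggt
Rps23 pseudogene antisense, second: tgtgatcttcttGccgttctta
Rps6 antisense: ttgcttcatgggaaaaccttgc
Rps6 pseudogene antisense, Gm4796: acatactggcAgacatcatcCt
Rps6 pseudogene antisense, Rps6-ps1: aCccGTgaacagacttgcgct
Rpl7 pseudogene antisense, Gm6274: accttaGgaacctttgggct
Rps18 antisense: tgctggaacttctcagggat
In the 19-30 nt library the Rps23 sense insert had 12 reads and the Rps23 antisense insert had 4, with 2 more at 19-24 nt. The first pseudogene insert of Rps23 had 13 reads there, more than any single antisense insert of the Rps23 mRNA. An otherwise equal insert that ends 1 base earlier, tgccacttctgAtcccgtcgg, had 4 there and 1 at 19-24 nt, and the second pseudogene insert had 2 and 1. Each Rps6 or Rpl7 pseudogene insert shown had 1 read, the Rps6 antisense insert had 3 and the Rps18 antisense insert had 2, all in the 19-30 nt library.

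Counting every read of the 81 genes once, the sense strand had 678 reads at 19-24 nt (2150 RPM, exact Poisson interval 1991 to 2318), 556 at 24-30 nt (1615 RPM, 1484 to 1755) and 1538 at 19-30 nt (10472 RPM, 9955 to 11009). The antisense strand had 321 reads (1018 RPM, 909.6 to 1136), 296 (859.8 RPM, 764.7 to 963.6) and 545 (3711 RPM, 3406 to 4036). Antisense reads thus made up 32.1% (Wilson interval 29.3 to 35.1), 34.7% (31.6 to 38.0) and 26.2% (24.3 to 28.1) of the reads of the set. In the 19-30 nt library inserts are read in full up to 30 nt. Of its 943811 reads, 311671 showed no linker, were taken as longer than 30 nt and were left out. All length shares below are therefore shares of inserts of at most 30 nt. Of the reads kept there, 77.4% of antisense (73.7 to 80.7) and 85.2% of sense reads (83.3 to 86.9) were 20 to 23 nt long.

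Most of these reads were not particular to ribosomal protein sequence. A read that also matched more than 10 genes that are neither pseudogenes nor hold ribosomal protein coding sequence was set apart as widely shared, and the other reads are called ribosomal reads here. This division was made after the data were seen. Widely shared reads made up 922 of 1162 antisense reads (79.4%) and 1668 of 2772 sense reads (60.2%). The boundary lay in a thin stretch of the distribution, with 7 reads matching more than 5 and up to 10 such genes, 14 matching up to 20, and 2430 matching more than 100.

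The widely shared reads lay in the 3′ UTRs of a few long transcripts. Rps15a, a small-subunit protein (chr7:118104372-118116188, minus strand, GRCm38), had the most reads of the set: 274, 157 and 645 sense and 136, 240 and 238 antisense in the 19-24, 24-30 and 19-30 nt libraries. Of them 98.8% were widely shared, and all 1669 of those began between positions 118105507 and 118105811 of chromosome 7, after the stop codon of 2 of the 6 coding transcripts. A median read of this stretch matched 140 places among annotated transcripts. Rpl7l1, a paralogue of Rpl7, had 406 sense and 75 antisense reads over the 3 libraries, 98.3% of them widely shared. Rps16 had 123 and 87 (96.2%) and Rps13 had 74 and 63 (97.8%). In these 4 genes the totals on both strands came almost wholly from sequence that many other annotated genes also hold. Structural RNA genes were matched by 27.2% of the widely shared antisense reads and 19.9% of the sense ones.

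Antisense reads were at least as many as sense reads, among genes with at least 10 reads, in Rpl23 (40 against 16), Rps24 (36 against 9), Rpsa, the laminin receptor protein of the small subunit (17 against 7), and Rps20 (26 against 19). In Rpl23, Rps24 and Rpsa the antisense reads were at least 2-fold over sense, in 3 of the 35 members with at least 10 reads, where 21% of all coding genes with at least 10 reads were. Widely shared reads made up between 68.9% (Rps20) and 83.9% (Rpl23) of the reads of these 4 genes. Without them no member reached 2-fold, against 17.7% of coding genes. Widely shared reads of Rps3 differed in place: 16 of 19 began at a position that is coding in some transcript of the gene.

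**Figure D1:**
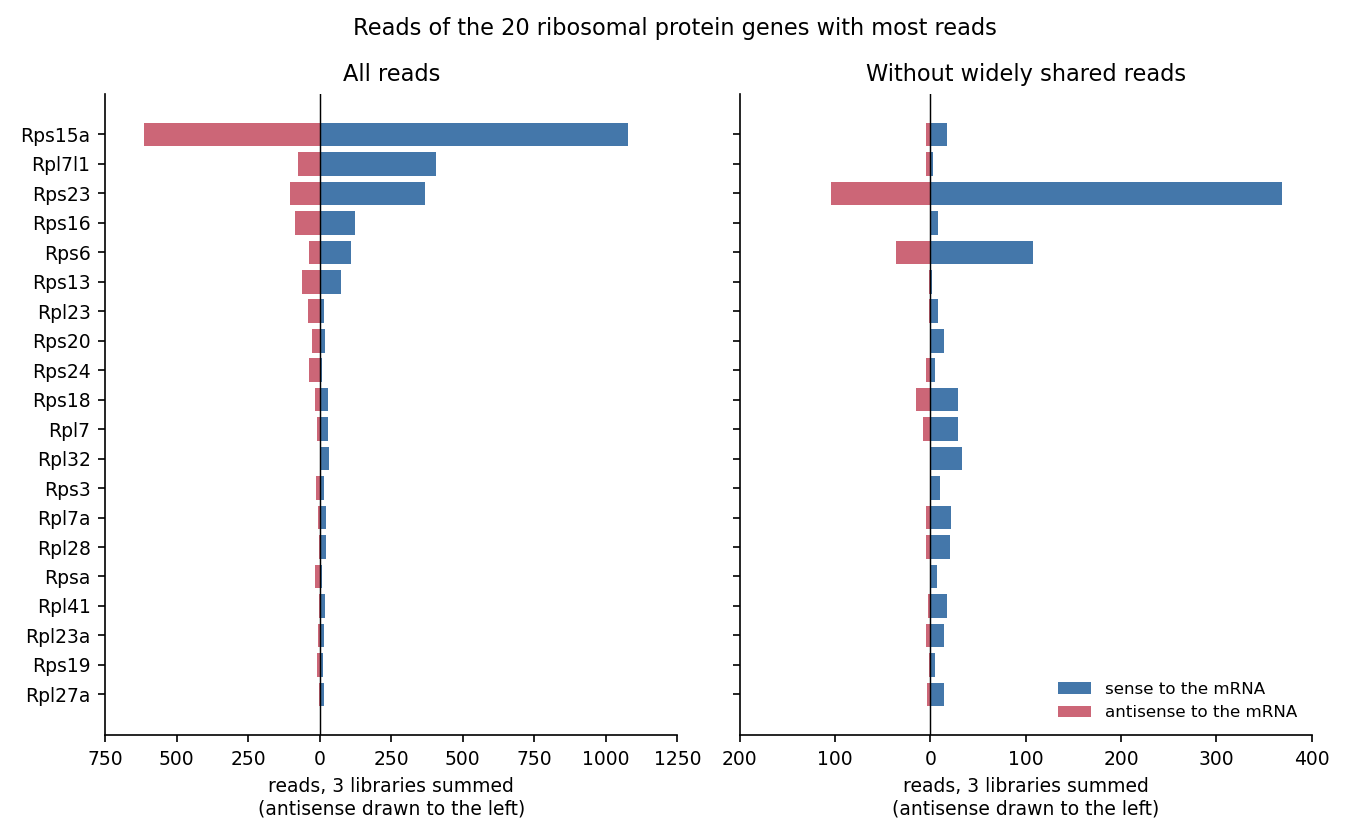
Reads of the 20 ribosomal protein genes with most reads, summed over the 3 libraries, with sense reads to the right of 0 and antisense reads to the left. The left panel counts all reads and is led by Rps15a (1076 sense, 614 antisense), and the right panel leaves out widely shared reads and is led by Rps23 (369 sense, 104 antisense) and Rps6 (108 and 36); the horizontal scales differ.

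A member was counted as having antisense reads where it had at least 10 over the 3 libraries. With all reads 12 of the 81 members did (Rpl23, Rpl7l1, Rps13, Rps15a, Rps16, Rps18, Rps20, Rps23, Rps24, Rps3, Rps6 and Rpsa), or 12 of the 35 with at least 10 reads, where 71.4% of all coding genes with at least 10 reads did and 11.8% of all coding genes. Counting ribosomal reads alone, 3 members did, Rps23, Rps6 and Rps18. The shares over coding genes were then 47.2% of those with at least 10 reads, a criterion 28 members met, and 2.69% of all 21951. A further 10 members had 4 to 9 antisense ribosomal reads (Rps15a, Rps24, Rpl28, Rpl7, Rpl29, Rpl23a, Rpl7a, Rpl35, Rpl7l1 and Rps28), 24 had 1 to 3, and 44 had none.

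The ribosomal reads of the 81 genes had another make-up than the widely shared ones. Sense reads numbered 283, 339 and 482 in the 19-24, 24-30 and 19-30 nt libraries (897.4, 984.7 and 3282 RPM), and antisense reads 84, 6 and 150 (266.4, 17.4 and 1021 RPM). The antisense share was 22.9% (18.9 to 27.4), 1.74% (0.799 to 3.74) and 23.7% (20.6 to 27.2) in the same order. In RPM the 19-24 nt library was 15.3-fold (conditional binomial interval 6.735 to 42.8) over the 24-30 nt library for antisense reads, while for sense reads the ratio was 0.911 (0.775 to 1.07). The sense ratio turned to 1.75 (1.49 to 2.05) per usable insert and 3.95 (3.36 to 4.64) per matched read outside microRNA genes, while the antisense ratio rose to 29.3 and 66.2. Widely shared antisense reads numbered 237, 290 and 395, so they were not low in the 24-30 nt library.

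Lengths were narrow on both strands. Of the 150 antisense ribosomal reads of the 19-30 nt library 92.7% (87.3 to 95.9) were 20 to 23 nt long and 2% (0.682 to 5.71) were 25 to 30 nt, the lengths of piRNAs. Of the 482 sense reads 89.2% (86.1 to 91.7) were 20 to 23 nt. For widely shared antisense reads the values were 71.6% (67.01 to 75.9) and 16.2% (12.9 to 20.2). The first base was U in 60% of antisense (52.0 to 67.5) and 49.4% of sense ribosomal reads (44.9 to 53.8) of that library. Ribosomal reads matching a ribosomal protein pseudogene were 216 of the 240 antisense (90%) and 900 of the 1104 sense reads (81.5%).

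Rps23 led the ribosomal reads on both strands. The gene (ENSMUSG00000049517.8) lies at chr13:90922958-90924950 on the plus strand of GRCm38. It had 95, 9 and 265 sense reads in the 19-24, 24-30 and 19-30 nt libraries (301, 26.1 and 1804 RPM) and 37, 1 and 66 antisense reads (117, 2.90 and 449 RPM). Both strands were low in the 24-30 nt window alone. The 19-24 nt library was 11.5-fold (5.82 to 25.97) over the 24-30 nt library on the sense strand and 40.4-fold (6.81 to 1638) on the antisense strand, the latter against a single read. In the 19-30 nt library 241 of 265 sense reads (90.9%) and 62 of 66 antisense reads (93.9%) were 20 to 23 nt long. The first base was U in 45.3% of the sense and 57.6% of the antisense reads there.

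Rps6 (ENSMUSG00000028495.14, chr4:86854660-86857412, minus strand) had the same order of libraries with fewer reads. Sense reads numbered 43, 2 and 63 and antisense reads 17, 0 and 19 in the 19-24, 24-30 and 19-30 nt libraries. The sense strand was 23.5-fold higher at 19-24 than at 24-30 nt (interval 6.11 to 200), and for antisense reads, 17 against 0, the lower end of the same interval was 4.50-fold. Of the 19-30 nt reads 92.1% of sense and 78.9% of antisense reads were 20 to 23 nt long, and 74.6% and 73.7% began with U.

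Rps18 (ENSMUSG00000008668.15, chr17:33951999-33956001, minus strand), a protein of the head of the small subunit, had 6, 5 and 18 sense and 3, 0 and 12 antisense reads. Of the 19-30 nt reads 17 of 18 sense and 12 of 12 antisense reads were 20 to 23 nt long. The sense ratio of 19-24 to 24-30 nt was 1.31 (0.333 to 5.43) in RPM, with too few reads to show a difference, and 5.67 (1.44 to 23.5) per matched read outside microRNA genes.

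Together Rps23 (43.3%), Rps6 (15%) and Rps18 (6.25%) held 64.6% of the antisense ribosomal reads of the set. Of the members with at least 10 antisense ribosomal reads in the 19-24 and 24-30 nt libraries together, Rps23 and Rps6, both had at least 2-fold more antisense RPM in the former. Over coding genes that share was 26.2%. With all reads it was 6 of 10 members (Rpl23, Rps13, Rps23, Rps24, Rps3 and Rps6), against 38.8%.

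**Figure D2:**
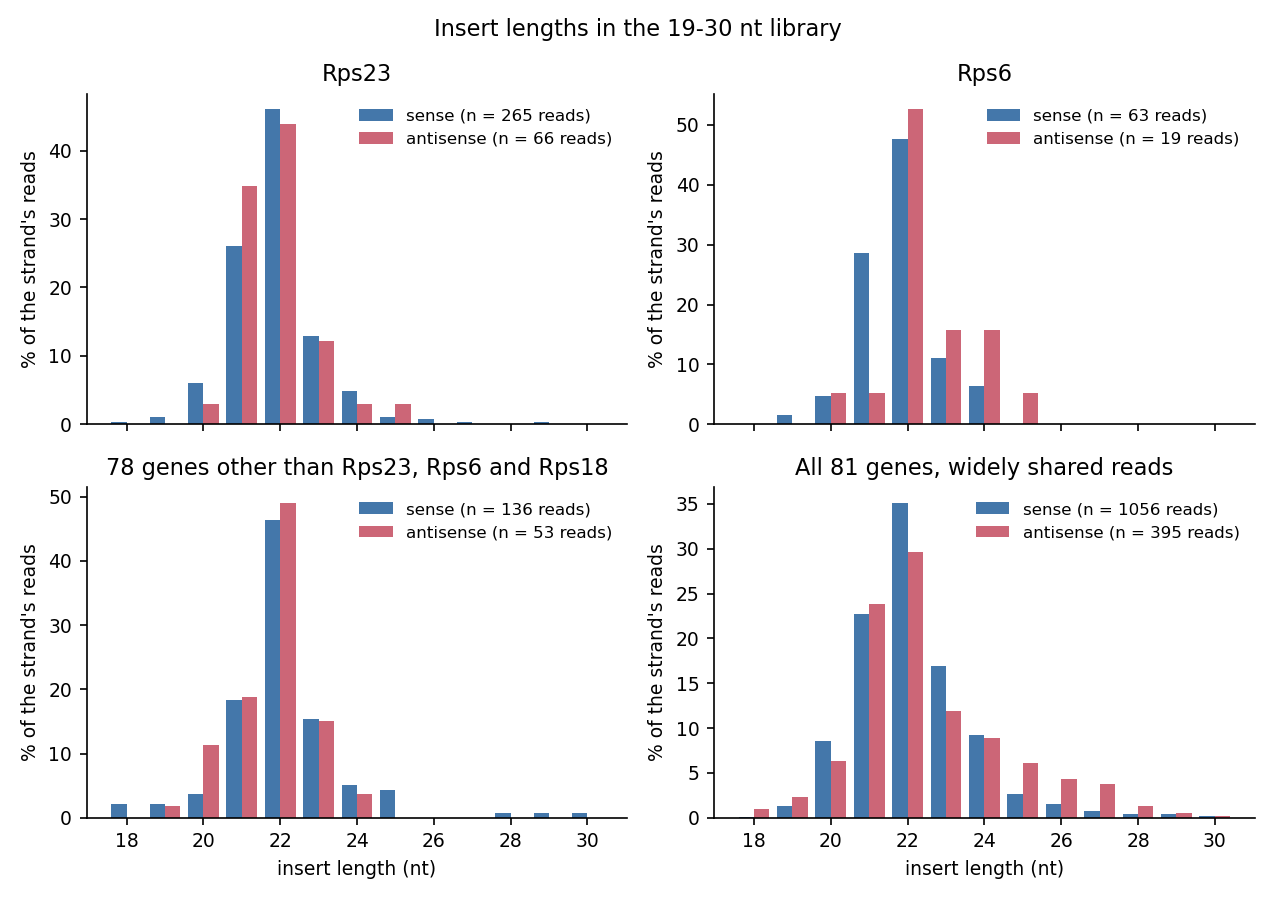
Insert lengths in the 19-30 nt library, as the percentage of each strand's reads, for Rps23, Rps6, the 78 members other than Rps23, Rps6 and Rps18 (ribosomal reads), and the widely shared reads of all 81 genes. Both strands of Rps23 peak at 22 nt (122 of 265 sense and 29 of 66 antisense reads), and the widely shared antisense reads have the longest tail, with 16.2% at 25 to 30 nt.

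The other 78 members had 139, 323 and 136 sense and 27, 5 and 53 antisense ribosomal reads. Their antisense reads had the lengths seen for Rps23, with 50 of 53 (94.3%, 84.6 to 98.1) at 20 to 23 nt in the 19-30 nt library. Their antisense RPM was 5.89-fold (2.24 to 19.6) higher in the 19-24 than in the 24-30 nt library. For their sense reads the ratio was 0.470 (0.382 to 0.575) in RPM, but 0.901 (0.733 to 1.10) per usable insert and 2.04 (1.66 to 2.49) per matched read outside microRNA genes, so its direction depends on the scaling. Under each of these scalings its interval lay below those of Rps23 and Rps6. In the order of windows above, U was the first base of 17.99%, 17.96% and 47.1% of these sense reads, against 66.7%, 40% and 58.5% of the antisense reads. Granulosa markers other than Mir202 had most reads at 24-30 nt too, with 30, 90 and 0. The 15 oocyte markers had 46, 55 and 69 reads, with most at 19-30 nt. Nlrp5, Oog1 and Zar1, a trio set apart after its values were seen, each had most at 19-30 nt. The other 12 oocyte markers had 18, 38 and 3. These are read counts, not scaled to the size of each library. The part of granulosa RNA in the sense reads of these 78 genes was not tested.

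Among the large-subunit members, Rpl7 had 4, 3 and 22 sense and 4, 0 and 4 antisense reads. Rpl32, with 2, 24 and 7 sense reads, had no antisense read. Rpl7a had 22 sense and 5 antisense reads over the 3 libraries, Rpl28 21 and 4, and Rpl41, the smallest protein of the large subunit, 18 and 2. Rpl3, Rpl32, Rpl4 and Rplp1 of the large and Rps20 and Rps3 of the small subunit had at least 10 ribosomal reads and no antisense one.

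The reads of Rps23 covered its coding sequence and not the rest of the mRNA. On the 937 nt transcript the coding sequence runs from position 239 to 667, and 355 of 369 sense reads and all 104 antisense reads had their 5′ end in it. The other 14 sense reads began just before it, from position 211 on. No read of either strand began in the 3′ UTR. Sense reads began at 126 positions and antisense reads at 55, so neither strand came from 1 site. The fullest sense position, 559, had 15 reads, and the fullest antisense position, 330, had 10. For Rps6, 104 of 108 sense and 33 of 36 antisense reads had their 5′ end in the coding sequence (positions 87 to 833 of 878), at 82 and 29 positions. For Rps18 all 29 sense and 15 antisense reads did.

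**Figure D3:**
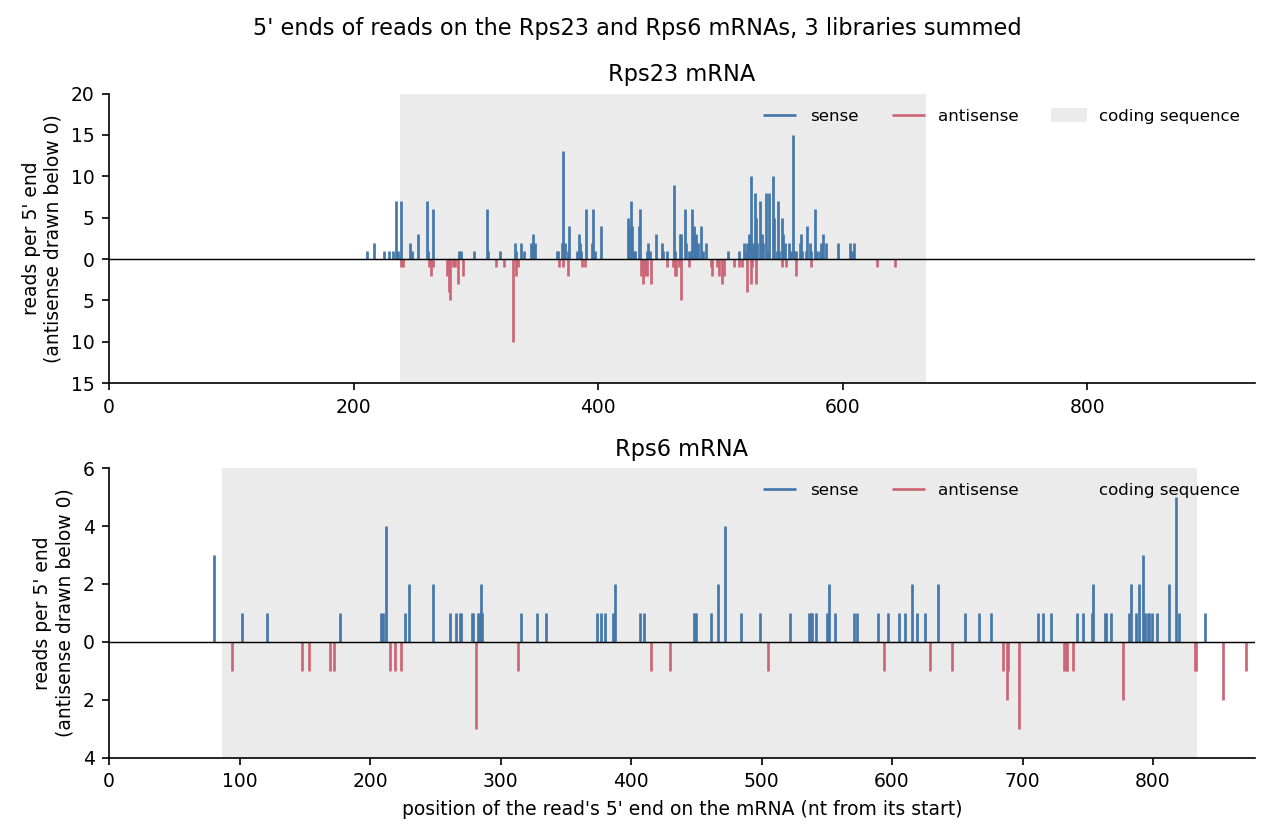
5′ ends of ribosomal reads along the Rps23 (top) and Rps6 (bottom) mRNAs, summed over the 3 libraries, with sense reads above 0, antisense reads below and the coding sequence in grey. On Rps23 both strands stay within or just before the coding sequence, which ends at position 667 of 937, and no read begins in the 3′ UTR.

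Pairs of 5′ ends between the strands of Rps23 were found at every overlap counted. Over the 105 distinct sense and 50 distinct antisense 5′ ends of reads of 20 to 23 nt, between 7 and 16 pairs were found at each overlap from 1 to 30 nt. The overlap of 10 nt, known from piRNAs cut in turn on both strands, had 9 pairs. For Rps6, with 58 and 20 such ends, each overlap had between 0 and 5 pairs, with 5 at 22 nt and 2 at 10 nt. For Rps18 no overlap had more than 3. No expected count was set beside these pairs, and antisense reads of pseudogenes alone were not among them. Whether any spacing is preferred was therefore not tested.

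Where a pseudogene differs from its parent gene, a read can be told apart, and there the strands separated. Of the Rps23 reads 458 matched the mRNA and a pseudogene, and 22.3% of these (18.7 to 26.3) were antisense. The 15 reads matching the mRNA and no ribosomal protein pseudogene were 13 sense and 2 antisense (13.3% antisense, 3.74 to 37.9). The 96 reads matching Rps23 pseudogenes and no ribosomal protein mRNA were 8 sense and 88 antisense (91.7%, 84.4 to 95.7). The 88 antisense reads were 23, 0 and 65 in the 19-24, 24-30 and 19-30 nt libraries, and 61 of the 65 (93.8%, 85.2 to 97.6) were 20 to 23 nt long.

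Rps6 gave the same picture. The 130 reads shared by mRNA and pseudogenes were 24.6% antisense (18.01 to 32.7), the 14 of the mRNA alone were 10 sense and 4 antisense, and the 38 of pseudogenes alone were all antisense, with 20, 0 and 18 in the 3 libraries. All 9 such reads of Rpl7 were antisense too, with 3, 1 and 5. For the 79 members other than Rps23 and Rps6 the antisense share was 9.04% of 199 mRNA-only reads (5.80 to 13.8), 15.5% of 528 shared reads (12.7 to 18.9) and 52.5% of 99 pseudogene-only reads (42.8 to 62.1). Rps18 had 2 pseudogene-only reads, both sense.

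**Figure D4:**
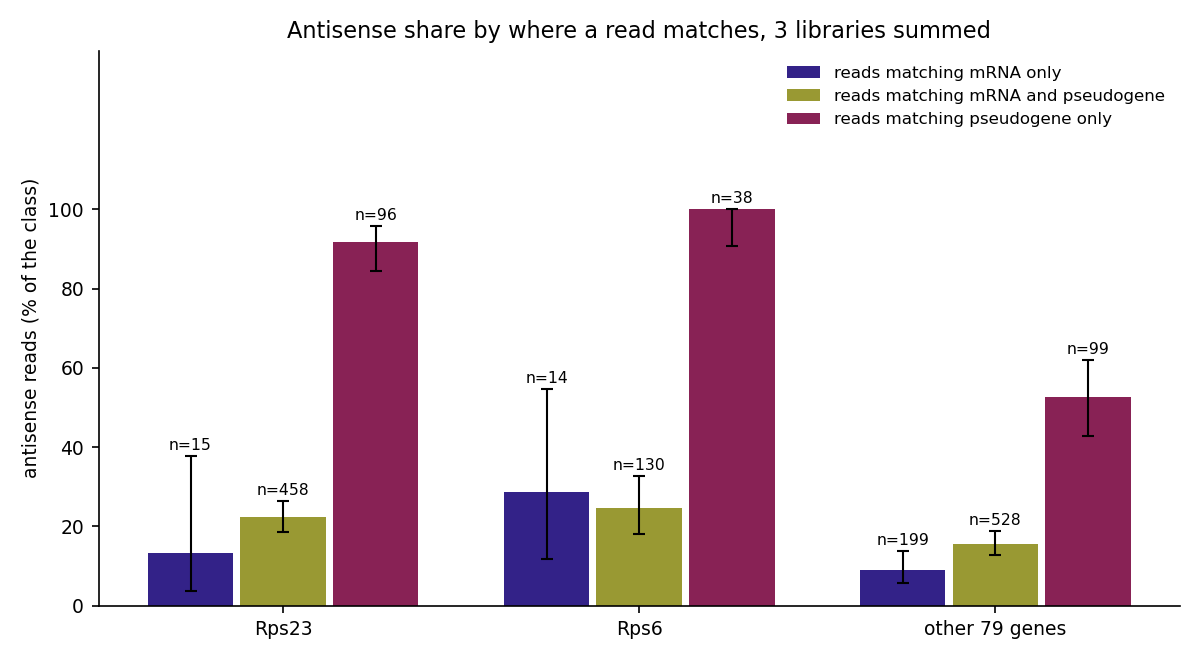
Percentage of ribosomal reads that are antisense, by whether a read matches only the mRNA, the mRNA and a pseudogene, or only pseudogenes, for Rps23, Rps6 and the other 79 genes, with 95% Wilson intervals and the number of reads n, 3 libraries summed. Reads of pseudogenes alone are 91.7% antisense for Rps23 and 100% for Rps6, above the other classes of the same genes without overlap of the intervals.

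Few of the pseudogenes had reads that can be told apart from the mRNA. A copy that differs from its mRNA at few bases can hold few such reads, so the shares below are bounded by sequence identity. No share over other pseudogenes was set beside them. A search of coding sequences against all transcripts (at least 80% identity over at least 50% of the coding sequence) found 1730 ribosomal protein pseudogenes, of which 1676 are annotated as processed and 42 as transcribed processed ones. An antisense read that matched no ribosomal protein mRNA was found for 112 (6.47%), from the families of 31 members, and a sense read of this kind for 115 (6.65%), from 21 families. A read shared by copies counts for each of them: 1 read gave 42 of the 115 (Rpl21), 7 reads gave 35 (Rps2), and 1 read gave 11 of the 112 (Rpl39). At least 10 such antisense reads were found for 7 pseudogenes (0.405%), of 2 families, Rps23 and Rps6. An antisense read found at that place alone was seen for 32 pseudogenes (1.85%). In all, pseudogene-only ribosomal reads were 54, 3 and 121 antisense and 17, 10 and 28 sense, and 90.1% (83.5 to 94.2) of the 121 and 85.7% (68.5 to 94.3) of the 28 were 20 to 23 nt long.

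Gm10054 (chr12:17233612-17234042, plus strand, 98.6% identical to Rps23) led with 86 antisense reads that match no member, 4 of them found there alone. It was followed by Gm10689 (chr8:25454273-25454704, plus strand) with 78, Rps23-ps2 (chr8:3583799-3584230, minus strand) with 48, Gm15464 (chr1:60117255-60117685) with 30, Gm12517 (chr3:108602391-108602815) with 28 and Gm17786 (chr8:121581765-121582191) with 11. These pseudogenes share most of the reads, so their counts are not independent. Gm10689 could hold 177 of the 192 antisense reads of the Rps23 family (92.2%, 87.5 to 95.2) and Gm10054 169 (88.0%), while the Rps23 mRNA matched 104 (54.2%). On the sense strand the order of these loci was turned: the Rps23 mRNA matched 369 of 377 reads (97.9%, 95.9 to 98.9), Gm10689 275 (72.9%) and Gm10054 238 (63.1%). Other copies lay between: Rps23-ps2 matched 147 antisense (76.6%) and 300 sense reads (79.6%), and Rps23-ps1 102 (53.1%) and 355 (94.2%).

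Rps23-ps2 lies in the gene body of C330021F23Rik (chr8:3567990-3584939), which is annotated on the opposite strand and whose exon holds the pseudogene sequence in antisense direction. That exon held 48 such reads as well. Of the 1730 pseudogenes 38 (2.20%) have an exon annotated on their opposite strand, and of the 112 with antisense reads that match no member 6 (5.36%) do. Of the 115 with sense reads of this kind 6 (5.22%) do, so the share hardly differed by strand. No annotated exon lies opposite Gm10054, Gm10689 or Gm4796.

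In the Rps6 family Gm4796 (chr10:65534654-65535277, plus strand, 95.3% identical) had 25 antisense reads that match no member, 18 of them found there alone, the most of any pseudogene. Rps6-ps1 (chr15:76337616-76338362) had 9, of which 7 were found there alone. Gm4796 matched 42 of the 74 antisense reads of the family (56.8%) but 31 of the 108 sense reads (28.7%), all of which the Rps6 mRNA matched. Gm6274, a pseudogene of Rpl7 (chrX:36668217-36669013), had 9 antisense reads, 7 of them found there alone, and no sense read of this kind.

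Sense reads of pseudogenes had other leaders. Rpl37rt (chr5:115102923-115110268, minus strand), annotated as a transcribed processed pseudogene of Rpl37, had 11 sense reads that match no member and 1 antisense read. Gm10260 (chr13:97760072-97760632), annotated as coding and 99.1% identical to Rps18, had 8 sense reads and no antisense read of this kind, 6 of the 8 found at its place alone, where the long non-coding gene Gm26619 (chr13:97751112-97760965) is annotated on the other strand.

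A large number of pseudogenes did not go with many antisense reads. Members had between 0 and 152 assigned pseudogenes, with a median of 15, and Rps23 had 17, Rps6 24 and Rps18 18. The 6 members with at least 50, Rpl7a (152), Rpl29 (113), Rpl21 (102), Rps2 (85), Rpl17 (76) and Rpl23a (64), held 592 pseudogenes, but their mRNAs had 20 antisense ribosomal reads in all, and no more than 5 each. With reads of pseudogenes alone added, Rpl7a had 8 antisense reads, Rpl29 7, Rpl23a 6, Rpl17 and Rpl21 4 each and Rps2 2, against 192 for Rps23, 74 for Rps6 and 17 for Rpl7.

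**Figure D5:**
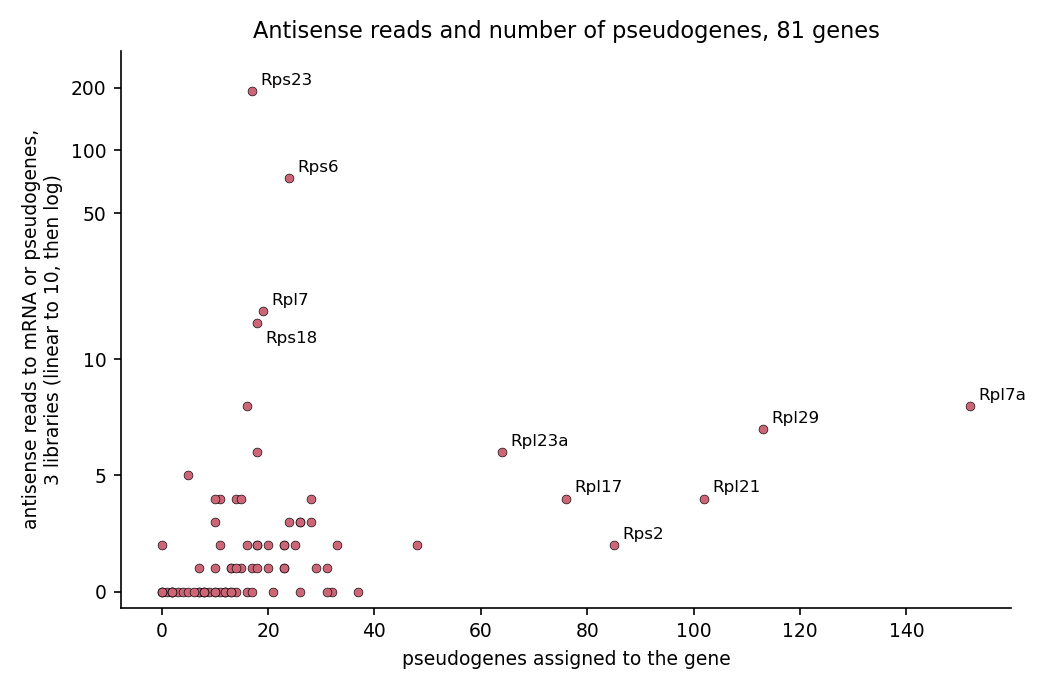
Antisense ribosomal reads to the mRNA or its pseudogenes, summed over the 3 libraries (linear up to 10 reads, logarithmic above), against the number of pseudogenes assigned to each of the 81 genes. Rps23 (192 reads, 17 pseudogenes) and Rps6 (74 reads, 24 pseudogenes) stand highest, and the 6 genes with at least 64 pseudogenes have between 2 and 8 reads.

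Other gene lists were counted in the same way, on reads that are not widely shared. An antisense read was found for 37 of the 81 ribosomal protein genes (45.7%), with medians of 7 sense and 0 antisense reads, against 14.4% of all coding genes, with medians of 0 and 0. Of 23 translation factors and other 5′ TOP mRNAs, whose translation is regulated together with that of ribosomal proteins, 30.4% had one, and of 30 ribosome biogenesis genes 23.3%. Among the former Eef1g, a subunit of the elongation factor that recharges Eef1a, had 75 sense and 15 antisense reads. Of the 78 mitochondrial ribosomal protein genes 20.5% had one. The antisense reads of Mrpl40 (18) and Mrps25 (15) came mostly or wholly from the 24-30 nt library, with 17 and 15 reads there. Those of Mrps7 (12) did not, with 4, 0 and 8 in the 19-24, 24-30 and 19-30 nt libraries. Of 40 other coding genes known for many processed pseudogenes 42.5% had an antisense read and 6 had at least 10: Gapdh 22, Ppia 60, Tuba1b 87, Set 36, Ran 18 and Dynll1 43. Of 8 genes known for oocyte siRNAs 7 had at least 10, from Hdac1 with 11 to Pdzd11 with 321 and Rangap1 with 607. The 104 antisense reads of Rps23 are close in number to the 100 of Ppp4r1, a gene of this last list. The range from 11 to 607 is wide, however. It also holds Eef1g with 15 and Mrpl40 with 18, of which 17 came from the 24-30 nt library. Dynll1 stands both in this list and in that of genes with many processed pseudogenes. The count alone therefore does not set siRNA genes apart, and whether Rps23 belongs with them was not tested by it.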

How the data were processed

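The values the authors deposited are other than counts: untrimmed single reads with a quality per base, of 26 nt (19-24 and 24-30 nt windows) and 36 nt (19-30 nt window), from an Illumina 1G instrument per the labels. Aligner, build and filters: not given in the sources used here.

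Linker bases at the 3′ end were read from the data and trimmed (overlap of at least 4 or 6 bases, mismatches up to 20%). In 26 nt reads only inserts up to 22 nt could be sized, so lengths are given for 36 nt reads. On simulated reads the lowest share of exact lengths was 94.0% (26 nt) and 99.2% (36 nt). Of 764539, 1484509 and 943811 reads, 679397, 1421977 and 438253 were usable inserts of at least 18 nt. In the 19-30 nt library 311671 reads without a linker, taken as inserts over 30 nt, were left out. Their first 20 nt had to match a GENCODE M21 transcript (GRCm38) perfectly on either strand, at no more than 1000 places. Introns, intergenic sequence and unannotated copies were not analysed here. A read was counted in full, once, for each gene and strand.

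Pseudogenes were found with blastn 2.17.0 and assigned to the best-scoring member. With 1 library a window no test was made. Python 3.11.15 and scipy 1.17.1 were used. Genes named were the members with most antisense or sense reads, with antisense at least as many as sense, or with extreme shares of pseudogene matches, and the pseudogenes with most reads matching no member; others were named after their values were seen. Members and gene lists were chosen with earlier results of these data known, and the class of widely shared reads after the data were seen. The alternatives stand in the closing section.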

Additional observations from a re-analysis of the deposited data

How the results depend on the processing

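No paired analysis was possible because there is 1 library for each window. With all reads counted in full, the values to compare are those of the report, with ratios of the 19-24 to the 24-30 nt library of 1.18 (antisense) and 1.33 (sense), 96.5% of antisense reads also matching any pseudogene, and 578 sense and 1014 antisense pseudogene reads that match no member. Values are given in the order of the 19-24, 24-30 and 19-30 nt libraries.

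Without widely shared reads, sense RPM was 897.4, 984.7 and 3282, antisense RPM 266.4, 17.4 and 1021, and the antisense share 22.9, 1.74 and 23.7%. Reads of 20 to 23 nt were 92.7% (antisense) and 89.2% (sense), the ratios 15.3 (antisense) and 0.911 (sense, now below 1), pseudogene matches 91.2%, members with at least 10 antisense reads 3, members 2-fold over sense 0, and pseudogene-only reads 55 sense and 178 antisense. This alternative was chosen after seeing the data.

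With each read weighted by 1 over its number of places, sense RPM was 250.5, 435.2 and 649.8, antisense RPM 58.6, 7.69 and 155.7, and the antisense share 19.0, 1.74 and 19.3%. Reads of 20 to 23 nt were 90.2% and 89.3%, the ratios 7.63 and 0.576 (sense, now below 1), pseudogene matches 67.3%, the member counts 1 and 0, and pseudogene-only reads 45.2 sense and 186.9 antisense. With a single place only, sense RPM was 104.6, 249.8 and 102.1, antisense RPM 22.2, 0 and 20.4, and the share 17.5, 0 and 16.7%. Lengths were 100% and 93.3%, the sense ratio 0.419 (now below 1), pseudogene matches 0% (by construction), the member counts 0 and 0, and pseudogene-only reads 21 sense and 71 antisense. The antisense ratio had 0 reads below it and gave no value.

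With each distinct sequence counted once, sense RPM was 6520 and 4212 at 19-24 and 24-30 nt, antisense RPM 3498, 1937 and 5264, and the share 31.5 and 34.4% at 24-30 and 19-30 nt. Lengths were 71.8% and 76.9%, the ratios 1.80 and 1.55, and antisense pseudogene-only reads 551. Matching the whole insert gave 9549 sense and 2882 antisense RPM, a share of 23.2% and lengths of 91.4% and 95.4% at 19-30 nt. With all transcripts of the members, sense RPM was 2476, 3134 and 11643, antisense RPM 1205, 973.1 and 4589, the share 23.7 and 28.3% at 24-30 and 19-30 nt, sense lengths 82.0% and the sense ratio 0.790 (now below 1). Without reads of structural RNA, sense RPM was 1861, 1389 and 9131, antisense RPM 751.5, 743.6 and 2846, the share 28.8 and 23.8% at 19-24 and 19-30 nt, sense lengths 87.5%, the member counts 6 and 1, and antisense pseudogene-only reads 575.

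Scaled to matched reads outside microRNA genes, sense values were 10051 and 12833, antisense values 4759 and 4547 (19-24 and 19-30 nt), and the ratios 5.13 and 5.77. Scaled to usable inserts, sense values were 997.9, 391.0 and 3509, antisense values 472.5, 208.2 and 1244, and the ratios 2.27 and 2.55. Pseudogenes by name alone gave 262 sense reads, matches with 1 mismatch 98.7%, and lengths of 21 to 22 nt 58.3% (antisense) and 62.0% (sense). For ribosomal reads alone, the sense ratio of all members turned to 3.95 (outside microRNA genes) and 1.75 (usable inserts), and that of the 78 members to 2.04 (outside microRNA genes). The other 38 values moved by less than their counting interval or, for counts of genes, stayed within 1.5 times. The sense ratio between windows turned under 4 alternatives. For ribosomal reads alone the antisense ratio was 29.3 per usable insert and 66.2 per matched read outside microRNA genes. Over the other settings it ranged from 1.01 (0.843 to 1.21, without structural RNA), with an interval that includes 1, to 15.3. With the whole insert matched it was 1.09 (0.916 to 1.3), but this value does not treat the windows alike. At 24-30 nt 1390049 of the 1421977 usable inserts could not be sized, and the antisense count stayed at 296. At 19-24 nt that count fell from 321 to 236. Whether the ratio differs from 1 for whole inserts therefore cannot be decided. The causes of the changes between alternatives were not tested. Counts of single pseudogenes are limited by depth, since 3 reads are the floor.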
